A study of Mus musculus with 6 samples.

Results

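The SOCS and PIM cytokine feedback genes are 10 genes chosen by symbol, namely Cish, Socs1, Socs2, Socs3, Socs4, Socs5, Socs6, Pim1, Pim2 and Pim3. All 10 were among the 50763 gene symbols of the deposited table, and all 10 passed the filter on low counts that left 19313 genes. They were measured by bulk RNA sequencing of CD34- KSL cells sorted from mouse bone marrow. KSL stands for c-Kit-positive, Sca-1-positive and lineage-negative, and the CD34-negative part of this gate is rich in long-term haematopoietic stem cells (HSC). All mice carried both transgenes, Tal1-tTA+ and TRE-EGFR-tr+. The first makes an activator in cells that use Tal1, a gene of blood stem cells, and doxycycline blocks that activator. The second is the activator's target. EGFR-DN mice (3 libraries) had no doxycycline. By design they made, beside any wild-type EGFR, a form of the receptor without its cytoplasmic tyrosine kinase domain. EGFR-WT mice (3 libraries) were kept on doxycycline (0.2 g/L in the drinking water) and by design could make wild-type EGFR only. Truncated receptor and drug therefore cannot be told apart in any comparison below. The labels give neither age nor sex, and they do not say whether marrow of several animals was pooled.

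Cytokine receptors without a kinase of their own, such as those for interleukin 3 and interleukin 6, signal through JAK kinases, which phosphorylate STAT transcription factors. STAT factors then switch on the genes of CIS and of some, not all, SOCS proteins. The SH2 domain of these proteins binds phosphorylated receptors or JAKs, and their SOCS box recruits a ubiquitin ligase, so that the signal is shut off again. STATs also switch on the PIM kinases, serine/threonine kinases that are active as soon as they are made and that favour survival and growth.

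Egfr transcript marked the groups as labelled, with 4022, 4758 and 991 counts in the EGFR-DN libraries against 6 in each EGFR-WT library. Those 6 counts came to between 0.160 and 0.237 CPM, so almost no Egfr transcript was found in EGFR-WT. EGFR protein was not measured here. Total counts ranged from 24073133 to 36032428 per library. Values below are TMM-scaled counts per 1000000 counts (CPM), and 3 counts correspond to between 0.0799 and 0.152 CPM. EGFR-DN replicate 3 stood apart, with 25.4% of its counts in 8 rRNA-like genes against 4.71% to 6.15% in the other libraries. Ribosomal protein genes held 0.921% of its counts against 2.52% to 2.73%, and its TMM factor was 0.820 against 1.03 to 1.05. Its log2 CPM correlated with no other library above r = 0.928, where the largest r of any pair was 0.980. The fold changes of the 10 genes, and of the pathway genes and lists named, are therefore also given without this library. Of the genes behind the sort, Kit (736 to 1962 CPM) and Ly6a, which encodes Sca-1 (46.7 to 78.4 CPM), were present in every library. Cd34 transcript was also present, although the gate selects cells without the surface protein. It had 569, 534 and 378 CPM in EGFR-DN replicates 1 to 3, against 318, 410 and 404 CPM in EGFR-WT replicates 1 to 3. With all 6 libraries neither edgeR nor DESeq2 called Cd34. Without EGFR-DN replicate 3 its log2 fold change (EGFR-DN over EGFR-WT) was 0.54, and DESeq2 called it higher (adjusted p = 0.000180; edgeR adjusted p = 0.118).

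STAT dimers bind the palindrome TTCNNNGAA, which reads the same on both strands. RefSeq start-site windows (GRCm38.p6, 250 bases before to 50 after the start) were at hand for 7 of the 10 genes, 8 windows in all. TTCNNNGAA was found in the windows of Cish and Socs3 and in none of those of Socs1, Socs4, Pim1, Pim2 and Pim3.  Among 32851 windows of the same length, 8.3% hold TTCNNNGAA and 0.457% hold it at least 2 times. Cish holds 2 matches, which do not overlap, beginning at bases 1 and 12 of the transcript. Socs3 holds 1, beginning at base -154. The stretches of 30 bases around the matches are shown because they carry the sequence by which STATs read a promoter, with each match in capitals.
Cish, plus strand, chr9:107296654-107296683: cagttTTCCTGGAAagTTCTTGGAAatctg
Socs3, minus strand, chr11:117969502-117969531: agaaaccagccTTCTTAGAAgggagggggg
A match describes the letters only and does not show that a STAT was bound in these cells.

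Per kilobase of the longest annotated transcript, Pim1 was the most abundant of the 10 transcripts in both groups, with a mean of 84.1 ± 6.86 CPM per kilobase for EGFR-DN and of 102 ± 5.10 for EGFR-WT (SD over 3 libraries, as for all means below). Its mean over all 6 libraries lay above that of 95.5% of 16713 tested genes with a known length. Pim2 followed, with 27.2 ± 7.58 in EGFR-DN and 32.9 ± 5.94 CPM per kilobase in EGFR-WT. In EGFR-WT, neither of them overlapped its next neighbour in the order. Socs3, Pim3, Socs5, Socs6 and Cish came next, between 12.6 and 7.03 CPM per kilobase on average in EGFR-WT, and each overlapped the next one in the order. Socs4 (4.56 ± 0.418 CPM per kilobase in EGFR-WT) lay below every Cish value and above every Socs1 value. Socs1 (3.53 ± 0.383) and Socs2 (3.00 ± 0.983) were the lowest and overlapped. The order of the means in EGFR-DN differed in 1 place, with Socs4 (5.29 ± 1.90 CPM per kilobase) above Cish (4.26 ± 1.88). The longest annotated transcript has, for example, 2908 bases for Socs1 and 4697 for Cish. Which transcripts the cells made was not tested. A shorter one would give a higher level per kilobase, so the order and separations hold for this choice of length only.

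**Figure D1:**
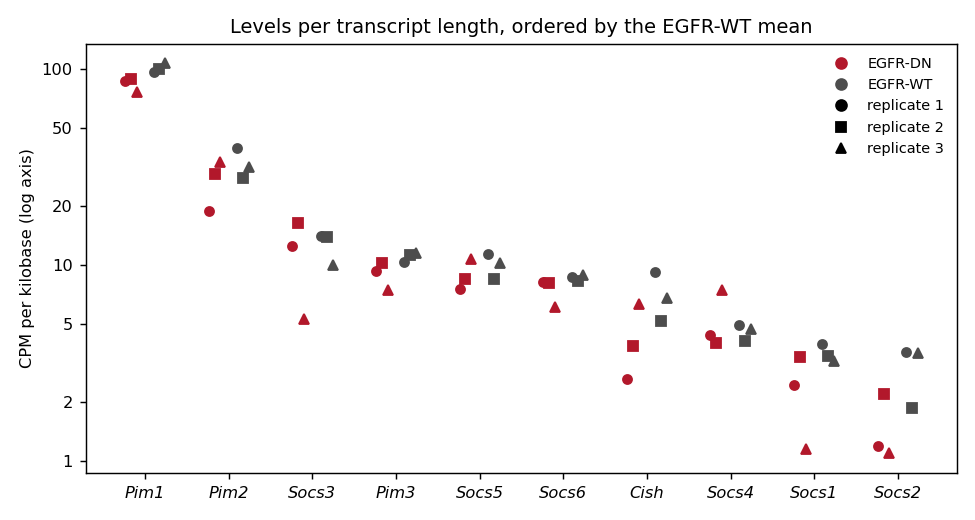
Level of each SOCS and PIM transcript in CPM per kilobase of its longest transcript, on a log axis, with 1 point per library (red, EGFR-DN; grey, EGFR-WT; shape, replicate). Pim1 stands above all others at 84.1 in EGFR-DN and 102 in EGFR-WT on average, and Socs2 has the lowest mean in both groups.

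Cish encodes CIS, the founding member of the family and a textbook target of STAT5. It had 12.3, 18.1 and 29.7 CPM in EGFR-DN replicates 1 to 3, against 43.0, 24.2 and 31.9 CPM in EGFR-WT replicates 1 to 3. EGFR-DN replicates 1 and 2 lay below every EGFR-WT library, whereas replicate 3 lay above EGFR-WT replicate 2, so the groups overlapped. EGFR-DN averaged 20.02 ± 8.83 CPM and EGFR-WT 33.0 ± 9.46, a log2 fold change (EGFR-DN over EGFR-WT, here and below) of −0.72 (95% interval −1.56 to 0.11; edgeR adjusted p = 0.690). Without EGFR-DN replicate 3 the log2 fold change was −1.12 (−1.73 to −0.51; edgeR adjusted p = 0.141), and DESeq2 then called Cish lower (adjusted p = 0.000391). With all 6 libraries DESeq2 did not call it (adjusted p = 0.542). In that DESeq2 test without replicate 3, 1.93% of 19919 genes were called lower, and Cish was the 1 member called. The log2 fold change of Cish was −0.47 without EGFR-DN replicate 1 and −0.50 without EGFR-WT replicate 1.

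Socs2 restrains growth hormone signalling and is another STAT5 target. Its levels were 5.05, 9.25 and 4.61 CPM in EGFR-DN replicates 1 to 3, against 15.3, 7.91 and 14.99 CPM in EGFR-WT replicates 1 to 3. EGFR-DN replicates 1 and 3 were the lowest libraries, but EGFR-DN replicate 2 exceeded EGFR-WT replicate 2. At 6.30 ± 2.56 CPM on average in EGFR-DN against 12.7 ± 4.17 CPM in EGFR-WT, Socs2 had the most negative log2 fold change of the 10, −1.01 (−1.88 to −0.13). It was the 1 member whose edgeR p lay under 0.05 before adjustment, and it did not pass adjustment over all genes (edgeR adjusted p = 0.690; DESeq2 adjusted p = 0.328). An unadjusted p under 0.05 with a lower level in EGFR-DN was found for 2.4% of all genes tested. Leaving out EGFR-DN replicate 3 moved Socs2 to −0.83 (edgeR adjusted p = 0.364). Its unadjusted edgeR p lay above 0.05 without EGFR-DN replicate 1, EGFR-WT replicate 1 or EGFR-WT replicate 3, and with the replicate number as a block, and 0 members were under 0.05 in those 4 fits. In EGFR-WT both Cish and Socs2 varied widely, with coefficients of variation of 28.7% and 32.8%, and both were highest in replicate 1 and lowest in replicate 2.

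Socs1 inhibits JAKs directly and restrains interferon gamma signalling. It had 7.12, 9.79 and 3.35 CPM in EGFR-DN replicates 1 to 3, against 11.5, 9.94 and 9.35 CPM in EGFR-WT replicates 1 to 3. EGFR-DN replicates 1 and 3 lay below the EGFR-WT range and replicate 2 lay within it. EGFR-DN differed by −0.60 on the log2 scale (−1.47 to 0.28; edgeR adjusted p = 0.690), and −0.28 without replicate 3 (edgeR adjusted p = 0.569). Without EGFR-DN replicate 2 it differed by −0.97.

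Socs3 turns off receptors that signal through gp130 and the receptor of granulocyte colony-stimulating factor. It had 31.9, 41.6 and 13.5 CPM in EGFR-DN replicates 1 to 3, against 36.03, 35.3 and 25.5 CPM in EGFR-WT replicates 1 to 3. Its highest and its lowest library were both EGFR-DN. On the log2 scale the difference was −0.15 (−1.06 to 0.76; edgeR adjusted p = 0.873), and without replicate 3 it turned to 0.18 (−0.23 to 0.59; edgeR adjusted p = 0.724). EGFR-DN replicate 3 held 36.8% of the mean Socs3 level of EGFR-DN replicates 1 and 2, and 39.6% of their mean Socs1 level.

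**Figure D2:**
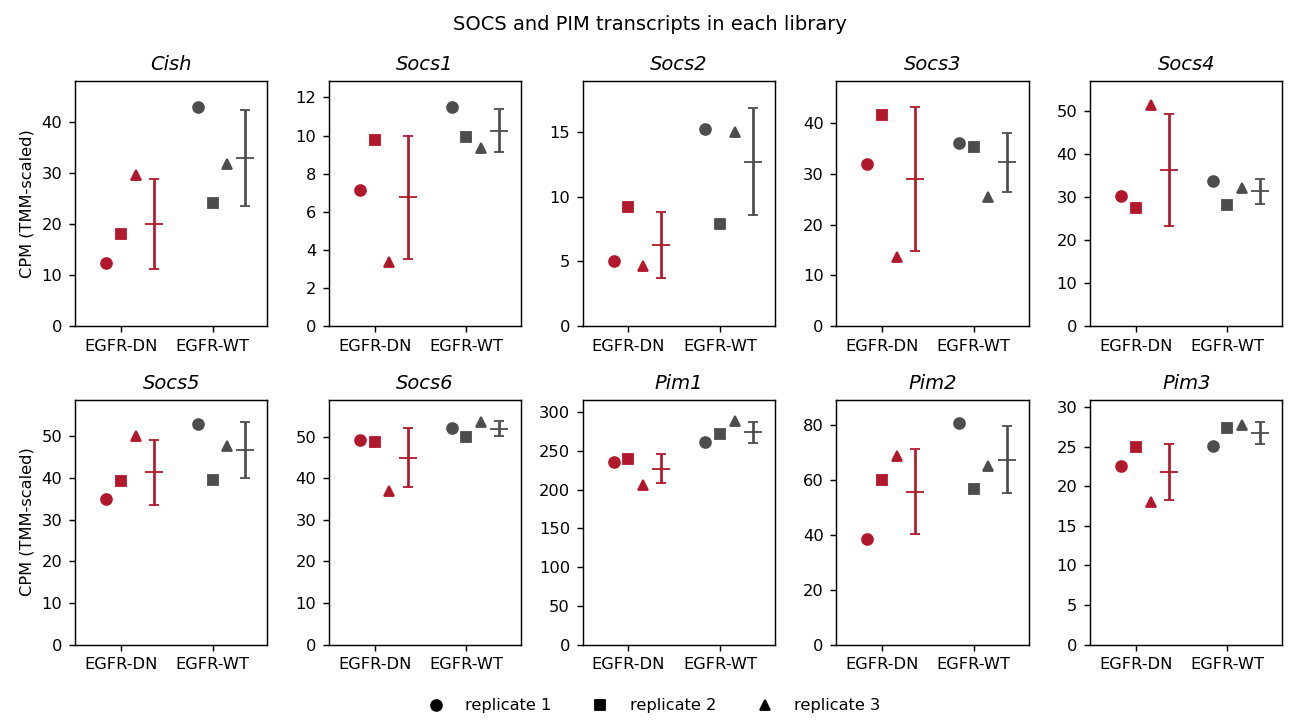
TMM-scaled CPM of each SOCS and PIM transcript in the 3 EGFR-DN (red, left) and 3 EGFR-WT (grey, right) libraries, with shapes for the replicates and bars for mean ± SD. Cish and Socs2 have their lowest libraries among EGFR-DN but overlap between groups, and all EGFR-DN libraries lie below all EGFR-WT libraries for Socs6, Pim1 and Pim3.

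Socs4 and Socs5 are structurally alike, and in human cells both have been linked to lower levels of EGFR protein. Socs4 had 30.2, 27.5 and 51.4 CPM in EGFR-DN replicates 1 to 3, against 33.7, 28.1 and 32.2 CPM in EGFR-WT replicates 1 to 3. The high level was that of replicate 3, and the other EGFR-DN libraries were within or just below the EGFR-WT range. Socs4 had the 1 positive log2 fold change of the 10, 0.21 (−0.39 to 0.81; edgeR adjusted p = 0.755), which turned to −0.12 (−0.37 to 0.12; edgeR adjusted p = 0.678) without replicate 3.

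Socs5 had 34.9, 39.2 and 50.1 CPM in EGFR-DN replicates 1 to 3, against 53.0, 39.5 and 47.6 CPM in EGFR-WT replicates 1 to 3. Its log2 fold change was −0.17 (−0.63 to 0.28; edgeR adjusted p = 0.745). Without replicate 3, the other EGFR-DN libraries lay below all EGFR-WT libraries, with a log2 fold change of −0.34 (−0.64 to −0.03; edgeR adjusted p = 0.327). It was −0.07 without EGFR-DN replicate 1 and −0.09 without EGFR-WT replicate 1.

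Socs6 binds KIT, the stem cell factor receptor, among other kinases. It had 49.3, 48.8 and 36.9 CPM in EGFR-DN replicates 1 to 3, against 52.2, 50.02 and 53.6 CPM in EGFR-WT replicates 1 to 3. The groups did not overlap, but EGFR-DN replicates 1 and 2 lay less than the EGFR-WT range below the lowest EGFR-WT library. As a log2 fold change this was −0.21 (−0.58 to 0.17; edgeR adjusted p = 0.700), and −0.09 without replicate 3 (−0.25 to 0.07; edgeR adjusted p = 0.650).

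Pim1 was first found as a gene activated by retroviral insertion in mouse lymphoma. It had 235.5, 239 and 206 CPM in EGFR-DN replicates 1 to 3, against 261, 272.0 and 289 CPM in EGFR-WT replicates 1 to 3. All EGFR-DN libraries lay below all EGFR-WT libraries, also when replicate 3 is left aside. EGFR-DN averaged 227 ± 18.5 CPM and EGFR-WT 274 ± 13.8 CPM, so that the EGFR-DN mean was 82.8% of the EGFR-WT mean. The log2 fold change was −0.27 (−0.65 to 0.10; edgeR adjusted p = 0.690), and −0.21 without replicate 3 (−0.37 to −0.05; edgeR adjusted p = 0.254; DESeq2 adjusted p = 0.0544).

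Pim2, the X-linked member, had 38.5, 59.8 and 68.7 CPM in EGFR-DN replicates 1 to 3, against 80.5, 56.5 and 65.0 CPM in EGFR-WT replicates 1 to 3. Its groups overlapped, with the lowest library EGFR-DN replicate 1 and the highest EGFR-WT replicate 1. The log2 fold change was −0.28 (−0.86 to 0.31; edgeR adjusted p = 0.718), and −0.46 without replicate 3 (−0.94 to 0.03; edgeR adjusted p = 0.390). It shrank to −0.07 without EGFR-DN replicate 1 and to −0.14 without EGFR-WT replicate 1. Xist, the transcript of the inactive X chromosome, had 77608 counts in EGFR-DN replicate 3 and 19195.8 to 29542.8 counts in the other libraries. None of the 4 Y-linked genes checked exceeded 9 counts.

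Pim3 had 22.6, 24.9 and 18.003 CPM in EGFR-DN replicates 1 to 3, against 25.2, 27.4 and 27.8 CPM in EGFR-WT replicates 1 to 3. EGFR-DN (21.8 ± 3.53 CPM) and EGFR-WT (26.8 ± 1.41 CPM) did not overlap, although EGFR-DN replicate 2 and EGFR-WT replicate 1 were close. The log2 fold change was −0.29 (−0.69 to 0.10; edgeR adjusted p = 0.690), and −0.18 without replicate 3 (−0.40 to 0.05; edgeR adjusted p = 0.476).

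Over all 10 genes, 0 passed edgeR's test at an adjusted p under 0.05, where 0.00518% of the 19313 genes tested passed (1 gene, Egfr). By DESeq2 on all 6 libraries 0 of 10 passed as well, against 0.699% of all genes, and by limma-voom 0. Log2 fold changes from edgeR lay below 0 for 9 of 10, with a median of −0.27, whereas 49.0% of all genes were below 0 and their median was 0.01. Without EGFR-DN replicate 3, edgeR called 0 of 10, against 0.286% of 19919 genes, and 4 were lower at an unadjusted edgeR p under 0.05 (Cish, Socs2, Socs5 and Pim1), against 6.99%. The number below 0 was again 9 of 10, with a median of −0.25, against 51.1% of all genes and a median of −0.01, but the member above 0 was then Socs3 and not Socs4. The groups did not overlap for 3 of 10 genes, Socs6, Pim1 and Pim3, all lower in EGFR-DN. Such a separation was seen for 8.72% of all genes lower in EGFR-DN and for 9.21% higher in EGFR-DN. Without replicate 3 the members lower without overlap were Cish, Socs5, Socs6, Pim1 and Pim3, 5 of 10, against 15.9% of all genes. These shares are descriptions, since the 10 genes were chosen with earlier results of these libraries known and are not independent of each other.

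The 10 genes differed most among themselves in EGFR-DN replicate 3, which was the lowest of the 6 libraries for Socs1, Socs2, Socs3, Socs6, Pim1 and Pim3 (6 of 10, against 38.4% of all genes) and the highest for Socs4. Relative to EGFR-DN replicates 1 and 2, replicate 3 ran from 36.8% of their mean for Socs3 to 195% for Cish. The same library had the outlying shares of rRNA-like and ribosomal protein counts given above, and the part of those shares in these values was not tested. In bulk RNA, fewer cells that make a transcript and less transcript per cell cannot be told apart.

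**Figure D3:**
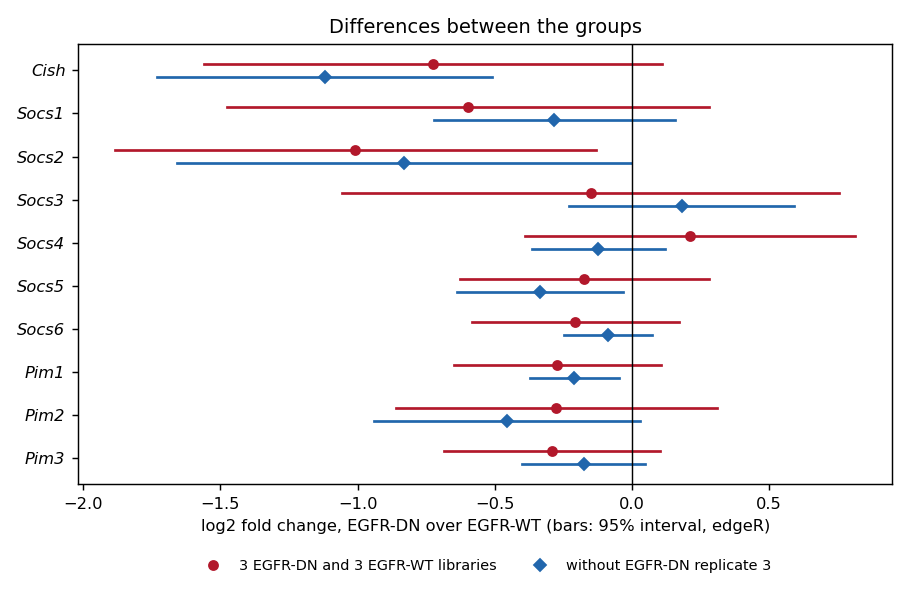
Log2 fold change (EGFR-DN over EGFR-WT) of each SOCS and PIM gene with its 95% interval from edgeR, for all 6 libraries (red circles) and without EGFR-DN replicate 3 (blue diamonds). With all libraries the interval of Socs2 alone, −1.88 to −0.13, leaves out 0, before any adjustment for the number of genes; Socs3 and Socs4 change side between the fits.

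The rest of the pathway was read from lists of JAKs, STATs, other brakes, receptors and targets. With all 6 libraries, none of the 4 JAK genes and none of the 7 STAT genes had an unadjusted edgeR p under 0.05. The JAK median was a log2 fold change of 0.20 (0.01 without EGFR-DN replicate 3) and the STAT median 0.12 (−0.10 without it). Named by the smallest p, Jak3 averaged 170 ± 52.1 in EGFR-DN against 137 ± 7.68 CPM in EGFR-WT, a log2 fold change of 0.32, or 0.03 without replicate 3. Jak2 averaged 129 ± 37.8 in EGFR-DN against 108 ± 6.47 CPM in EGFR-WT, a log2 fold change of 0.26, or −0.01 without replicate 3. Tyk2 was at a log2 fold change of 0.13 (SE 0.15), or 0.18 without it. Stat2 was at 0.24 (SE 0.20), or −0.0020 without it. Stat5b, which drives Cish and Socs2 in other cells, had 152 ± 16.9 in EGFR-DN against 137 ± 11.8 CPM in EGFR-WT (0.15, SE 0.16). Without replicate 3 it was at 0.23 and the EGFR-DN libraries lay above all EGFR-WT libraries, whereas Stat4, named after its values were seen, was at −0.25 and below them. Both then had an unadjusted edgeR p under 0.05, and neither passed adjustment (edgeR adjusted p = 0.320 for Stat5b and 0.344 for Stat4).

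Of 14 other brakes on JAK-STAT signalling, 3 lay below 0 with all 6 libraries and 8 without EGFR-DN replicate 3. Their median was 0.18 with it and −0.04 without it. At an unadjusted edgeR p under 0.05 there were 0 with all libraries and 1 without replicate 3, Socs7, which was lower. Socs7, the remaining SOCS gene, had 27.7, 27.3 and 26.0 CPM in EGFR-DN replicates 1 to 3, against 30.7, 31.3 and 31.6 CPM in EGFR-WT replicates 1 to 3. The groups did not overlap, and EGFR-DN differed by −0.21 on the log2 scale (SE 0.13; edgeR adjusted p = 0.690), and by −0.19 without replicate 3 (edgeR adjusted p = 0.359). The ubiquitin ligase genes Cbl and Cblb had log2 fold changes of 0.90 (SE 0.43) and 0.97 (SE 0.47), but 0.19 and 0.16 without replicate 3, in which Cbl reached 202 CPM. Of the 6 parts of the ligase that the SOCS box recruits, 5 lay below 0 (median −0.14), led by Eloc (−0.31, SE 0.27), Nedd8 (−0.18, SE 0.21) and Rnf7 (−0.24, SE 0.30). Without replicate 3 their median was 0.02, with Eloc at −0.07, Nedd8 at 0.0076 and Rnf7 at 0.04.

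Cytokine receptor genes lay mostly on the other side of 0 from the feedback genes. Of 27 tested, 20 had a log2 fold change above 0, with a median of 0.33 (0.19 without EGFR-DN replicate 3). Of these, 7 were higher at an unadjusted edgeR p under 0.05, where 4.3% of all genes were, and 0 were lower. Without replicate 3, 9 were higher at that level, against 6.64% of all genes, and 4 were lower, against 6.99%. With all libraries, none passed adjustment by edgeR, and 2 passed by DESeq2, Csf2rb and Csf2rb2. DESeq2 without replicate 3 called 8 higher, against 2.51% of all genes, and 1 lower. Csf2rb encodes the beta chain shared by the receptors for interleukin 3, interleukin 5 and GM-CSF. It had 46.2, 46.9 and 49.6 CPM in EGFR-DN replicates 1 to 3, against 16.5, 24.5 and 26.2 CPM in EGFR-WT replicates 1 to 3. Every EGFR-DN library was above every EGFR-WT library, which came to 1.09 on the log2 scale (SE 0.20; edgeR adjusted p = 0.642; DESeq2 adjusted p = 0.00261), and to 1.05 without replicate 3 (edgeR adjusted p = 0.0732). Csf2rb2 encodes the mouse beta chain specific to interleukin 3, and reads may be divided between this close relative and Csf2rb. It averaged 14.7 ± 4.27 in EGFR-DN against 6.04 ± 1.49 CPM in EGFR-WT (1.28, SE 0.29; DESeq2 adjusted p = 0.0178), and was at 1.02 without replicate 3. The interleukin 6 receptor gene Il6ra was at 0.69 (SE 0.18) and passed by neither edgeR nor DESeq2 with all libraries. Without replicate 3 it was at 0.59, and DESeq2 called it higher (adjusted p = 0.00848; edgeR adjusted p = 0.149).

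Among 19 tested genes known as STAT targets outside the SOCS and PIM families, 10 lay below 0 and the median was −0.04, or 0.03 with 8 below 0 without EGFR-DN replicate 3. Irf8, which directs monocyte and dendritic cell fate, had 50.2 ± 14.7 in EGFR-DN against 21.6 ± 5.08 CPM in EGFR-WT. With all libraries its log2 fold change was 1.22 and it passed by DESeq2 (adjusted p = 0.0196) but not by edgeR (adjusted p = 0.690). Without replicate 3 it was at 1.42 and edgeR also called it higher (edgeR adjusted p = 0.0488). The cyclin gene Ccnd2 was at −0.57 (SE 0.28), or −0.35 without replicate 3. Gfi1, a transcriptional repressor, was at 0.79 (SE 0.39) and passed by neither tool, but was at 1.10 without replicate 3, where DESeq2 called it higher (adjusted p = 0.00112; edgeR adjusted p = 0.128). Of 16 substrates of PIM kinases, 6 lay below 0 and the median was 0.07, or 0.06 with 7 below 0 without replicate 3. Cdkn1a, the gene of the cell cycle inhibitor p21, had 25.1, 17.6 and 17.9 CPM in EGFR-DN replicates 1 to 3, against 11.7, 8.71 and 9.50 CPM in EGFR-WT replicates 1 to 3. All EGFR-DN libraries lay above all EGFR-WT libraries, and DESeq2 called Cdkn1a higher (log2 fold change 1.02, SE 0.21; edgeR adjusted p = 0.688; DESeq2 adjusted p = 0.0126). Without replicate 3 it was at 1.10 (edgeR adjusted p = 0.0736). With all libraries, the efflux transporter gene Abcg2 (−0.59, SE 0.17) and Map3k5, which encodes a stress kinase (0.40, SE 0.17), passed by neither edgeR nor DESeq2. Without replicate 3 they were at −0.49 and 0.31, and DESeq2 called Abcg2 lower (adjusted p = 0.00381; edgeR adjusted p = 0.136).

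Of 5 receptor kinase genes listed as possible targets of SOCS4 to SOCS6, Egfr was the 1 called by edgeR. Flt3, a cytokine receptor gene of multipotent progenitors, was 0.82 higher on the log2 scale (SE 0.19; DESeq2 adjusted p = 0.0176), and 0.89 without EGFR-DN replicate 3 (edgeR adjusted p = 0.0593). The insulin receptor gene Insr was at 0.58 (SE 0.38), and at −0.03 without replicate 3.

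**Figure D4:**
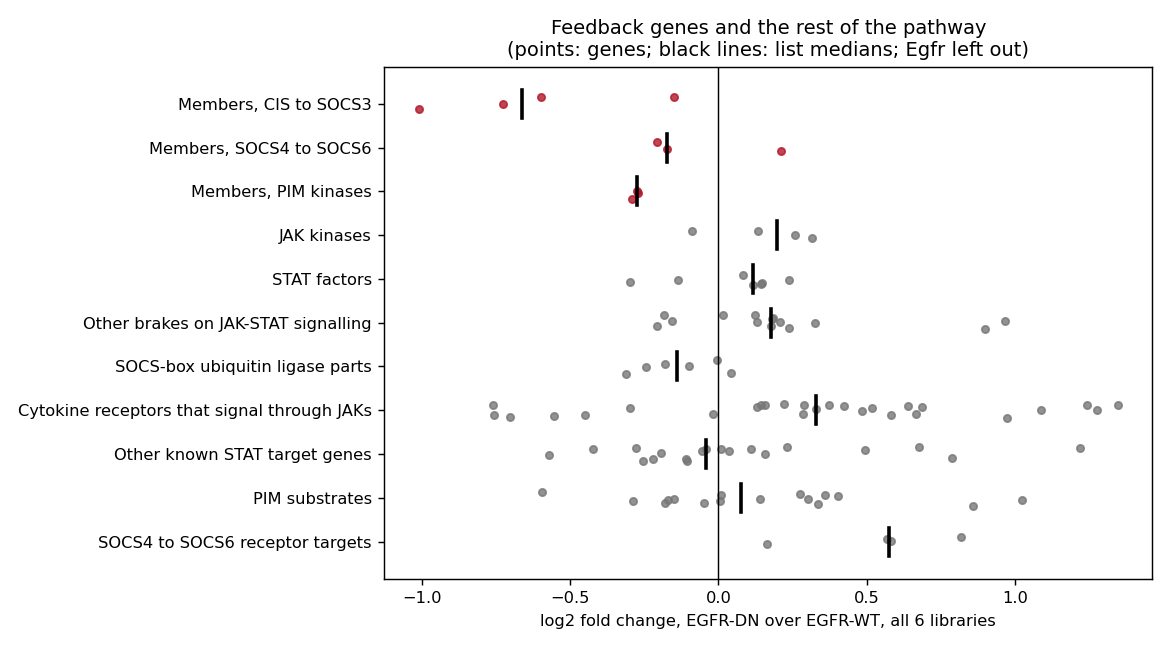
Log2 fold change (EGFR-DN over EGFR-WT, all 6 libraries) of each tested gene in the SOCS and PIM families (red, rows labelled Members) and in lists of the rest of the pathway (grey), with black lines at list medians and Egfr left out. The medians of the 3 family groups, −0.66 for Cish to Socs3, −0.17 for Socs4 to Socs6 and −0.28 for the PIM genes, lie below 0, and that of the 27 cytokine receptors is 0.33.

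Markers of cell identity were set beside these values, with no test of the lists. The 14 HSC markers had a median log2 fold change of −0.26, with 10 below 0, and of −0.64 without EGFR-DN replicate 3, with 14 below 0. Set against the mean of EGFR-WT, the medians were −0.80, −0.40 and 0.11 for EGFR-DN replicates 1 to 3, and 0.31, −0.07 and −0.13 in EGFR-WT replicates 1 to 3. EGFR-DN replicate 3 thus lay above EGFR-WT replicates 2 and 3, and the groups overlapped. On the same scale Cish was at −1.38, −0.83 and −0.11 in EGFR-DN replicates 1 to 3, and at 0.42, −0.41 and −0.01 in EGFR-WT replicates 1 to 3. For both the lowest library was EGFR-DN replicate 1 and the highest EGFR-WT replicate 1, as also for Socs5 and Pim2. Socs2 was at −1.26, −0.40 and −1.39 in EGFR-DN replicates 1 to 3, so that its low level in replicate 3 stood apart from the HSC markers. The summed level of the HSC markers was between 1559 and 4228 CPM in EGFR-DN and between 2055 and 2543 CPM in EGFR-WT, and 0 of the 14 were at 0.

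All 12 markers of lymphoid-primed progenitors lay above 0, with a median of 0.97 (0.90 without EGFR-DN replicate 3) and summed levels of 3802 to 9532 CPM in EGFR-DN and 1401 to 6037 CPM in EGFR-WT. The most abundant of them, Ighm, had 1871 to 8425 CPM in EGFR-DN and 564 to 4983 CPM in EGFR-WT, which overlapped. The sums of the other markers were 1107 to 1931 CPM in EGFR-DN and 837 to 1054 CPM in EGFR-WT, which did not overlap. All 9 tested neutrophil granule markers of 12 lay above 0 as well, with a median of 1.67 (1.46 without EGFR-DN replicate 3) and summed levels of 897 to 1436 CPM in EGFR-DN and 403 to 584 CPM in EGFR-WT. The most abundant, Mpo, had 648 to 1261 CPM in EGFR-DN and 262 to 429 CPM in EGFR-WT. Set against the mean of EGFR-WT, the medians of this list were 1.45, 1.30 and 0.21 in EGFR-DN replicates 1 to 3. In EGFR-WT replicates 1 to 3 they were −0.27, 0.33 and −0.02, so the groups overlapped on that scale. All 11 tested monocyte and dendritic cell markers of 12 also lay above 0, with a median of 1.22 (1.32 without replicate 3) and summed levels of 85.7 to 184 CPM in EGFR-DN and 61.5 to 80.4 CPM in EGFR-WT. No marker of these 3 lists was at 0 in all libraries. The medians were 1.09 for B lineage, 0.52 for T and NK cell, 0.32 for erythroid and megakaryocyte, −0.43 for mast cell and basophil, and −0.11 for stromal and endothelial markers. Without replicate 3 they were 0.96, 0.62, 0.19, −0.41 and −0.29 in the same order. Immediate early genes, which respond to handling of cells and include other fast-induced feedback genes, had a median of 0.05, with 8 of 19 tested below 0, or −0.06 with 11 below 0 without replicate 3. The part of these shifts in the values of the SOCS and PIM genes was not tested.

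**Figure D5:**
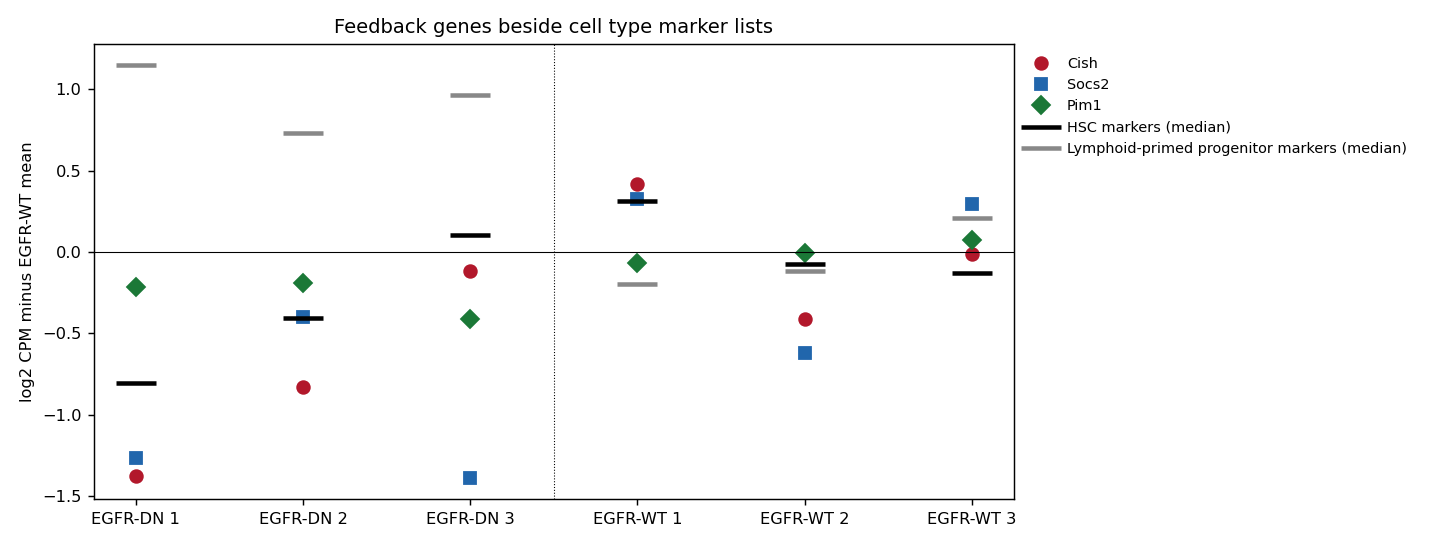
Log2 CPM minus the EGFR-WT mean in each library, EGFR-DN left and EGFR-WT right, for Cish, Socs2 and Pim1 (symbols) beside the medians of the HSC and lymphoid-primed marker lists (bars). Cish and the HSC markers are both lowest in EGFR-DN replicate 1 (−1.38 and −0.80) and highest in EGFR-WT replicate 1 (0.42 and 0.31), and Pim1 spans the narrowest range of the 3 genes. Socs5 and Pim2, not shown, have the same lowest and highest library as Cish.

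The library profiles of Socs2, Cish and Pim1 were compared with those of 11113 other genes of at least 4 CPM, as the root mean square difference of standardised log2 CPM over the 6 libraries, in SD units. The genes most like Socs2 were Aptx (0.225), Hoxa10 (0.226) and Pea15a (0.235). Those most like Cish were Chic1 (0.0858), Chst2 (0.0992) and Zfp979 (0.115), and those most like Pim1 were Gopc (0.115), Lrfn4 (0.131) and Ppp1r3d (0.149). With 6 libraries and so many candidates, close profiles are found for many genes, and these names are a description only.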

How the data were processed

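Libraries were prepared with SMART-Seq v4, priming 10 ng of RNA with oligo(dT), and with Nextera XT, which does not mark strand, and sequenced as single reads of 75 bases, per the labels' protocols. The deposited values are estimated counts for each gene symbol, not scaled, and 79.4% are whole (tolerance 0). DRAGEN, DESeq2 1.40.2, R 4.3.1 and the build mm39 are named in the submitters' processing notes, without their roles, an annotation or a strand setting. Tests were planned for whole counts, so values were rounded, which moved no count of the 10 genes by more than 0.46. The table held 0 columns of other samples.

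Counts were filtered with filterByExpr and TMM-scaled, and the groups were compared with edgeR 4.0.16 (R 4.3.3; quasi-likelihood, two-sided), with Benjamini-Hochberg adjustment over all genes and a threshold of 0.05. SE is the size of the log2 fold change over the square root of F, and intervals cover 95%. DESeq2 1.42.0 and limma-voom 3.58.1 were alternatives, and the scripts were tested on simulated data. The simulated data had the same set spread for every gene and no outlying library, so they do not show what the tests recover here. The labels do not say whether replicates are separate animals, and the p-values reflect only how far these libraries spread, which may be technical. No pair of libraries was a duplicate (smallest chi-square per degree of freedom 15.1). Floors of 3 counts cover counting error only.

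Transcript lengths and overlaps came from GENCODE M21 (GRCm38), not the authors' build. There, Cish overlaps Gm17040 on the opposite strand (at most 6 counts) and the antisense Gm17041, whose counts were not analysed here, over 1459 bases; Pim1 overlaps the antisense Gm26885 (50.4 to 103 counts), and Socs6 overlaps processed pseudogenes. Reads of such pairs may be mixed. The 10 genes and all lists were chosen with earlier results of these data known. Besides the 10 genes and Egfr, up to 3 genes of each pathway list with the smallest p, and the 3 genes with profiles most like Socs2, Cish and Pim1, were named. Some genes that this rule picks are not reported here. Kit, Ly6a, Cd34, Xist and the Y-linked genes were named as checks of the sort and the mice.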

Additional observations from a re-analysis of the deposited data

How the results depend on the processing

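Over 18 alternatives, Cish, Socs1, Socs2, Socs5, Socs6, Pim1, Pim2 and Pim3 kept a log2 fold change below 0. Socs3 turned to 0.18 without EGFR-DN replicate 3 by edgeR and by DESeq2, and to 0.19 with limma-voom and quality weights. Socs4 turned in the same settings to −0.12, −0.12 and −0.094. With 1 library left out at a time, Socs3 ranged from −0.51 to 0.18 and Socs4 from −0.12 to 0.36. Leaving out 1 library at a time kept the median of the 10 genes between −0.38 and −0.25, the count of members called at 0 in each case, and the count of all genes called between 0 and 57. Genes called over all genes numbered 135 by DESeq2, 0 by limma-voom, 188 by limma-voom with quality weights and 884 by DESeq2 without EGFR-DN replicate 3. That last setting, added after the data were seen, was the 1 of 18 that called a member (1 gene, Cish). The log2 fold change of Cish ranged from −1.12 without EGFR-DN replicate 3 to −0.47 without EGFR-DN replicate 1, and that of Socs2 from −1.41 without EGFR-DN replicate 2 to −0.73 with quality weights. Library size alone shifted the median of all genes by −0.11, with the members' median at −0.38. Members at an unadjusted p under 0.05 numbered between 0 and 4 over the 18 alternatives. With the replicate number as a block, 0 members and 1 gene in all were called, the members' median was −0.29, 0 members had an unadjusted p under 0.05, and no adjusted call changed. Same-numbered libraries did not deviate together (r = −0.02, 0.05 and 0.06 across genes, which are not independent), so the numbers were not taken as pairs. The causes of these changes were not tested.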
